A study of Mus musculus with 3 samples.

Results

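The genes described here are the interferon-induced gene families of the mouse and the factors that regulate them, as measured in sinonasal mucosa, the tissue that lines the nasal cavity and its sinuses. Members were all genes whose symbol begins with Ifi (other than Ifitm6), Oas, Gbp, or Irf followed by a digit, together with Rsad2, Isg20, Mx1 and Mx2. The symbol rule found 52 of the 17349 genes named on the array; it also lists Isg15 and Usp18, which no named probe carried and which were not analysed here. All mice were C57BL/6, aged 6 to 8 weeks. The group ECRS_KO held mice with a knockout of CC10 and induced allergic eosinophilic chronic rhinosinusitis, the group ECRS_WT held wild-type mice with that disease, and the group Control_WT held wild-type mice without it. CC10, encoded by Scgb1a1, is a small protein that club cells secrete into the fluid of the airways. Each group is 1 Illumina bead array of pooled RNA from 5 mice, 15 mice on 3 arrays in all, and no value below has a replicate error or a test. Precision is limited by this number of arrays.

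The targeted gene was examined first, and it went against the labels. Scgb1a1 had a signal of 597 on the array labelled ECRS_KO, 493 on the array labelled ECRS_WT and 3.32, below detection, on that labelled Control_WT. Between the arrays labelled ECRS_WT and Control_WT it was at least 13.9-fold higher. The gene has 1 probe, and whether that probe lies inside the deletion is not known here. For this reason arrays are called by their labels, and every direction below depends on labels that Scgb1a1 contradicts. Over all probes the mean was 465 on the array labelled ECRS_KO, 373 on that labelled ECRS_WT and 295 on that labelled Control_WT. Signals are as deposited, while differences are log2 differences after background correction and quantile normalization of the 3 arrays, so the sign of a difference can oppose that of the signals. Of the markers of the labelled tissue, 9 of 9 of olfactory sensory neurons and 5 of 7 of airway epithelium were detected.

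Interferons are secreted when sensors find foreign nucleic acid or when lymphocytes are activated, and they act through receptors whose signals reach transcription factors in the nucleus. A complex that holds Irf9 binds the interferon-stimulated response element, while the gamma-activated site serves the response to interferon gamma. The genes these elements control include antiviral effectors, GTPases that act on intracellular pathogens and proteins of antigen presentation, and respiratory mucosa is among the tissues where they limit viral infection.

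The upstream sequences of members were searched for the response element, which the symbol rule did not use directly. The rule chose interferon-induced families by name, so the element was not independent of that choice. It was searched as GAAA, any 2 bases and GAAA again, and the gamma-activated site as TTC, any 3 bases and GAA, on both strands of the 250 bases before each start in the RefSeq promoter sequences of GRCm38.p6, which matched 39 of the 52 members. The response element was found in 15 of the 39 members (38.5%) and in 936 of 27025 genes in all (3.46%). A higher share among the members was partly built into their choice by name. The 15 are not all separate cases. Ifit1 and Ifit1bl2 hold matches at the same place in the genome, read from opposite strands and counted for each gene. Several others are neighbours of a single family, such as Gbp2b, Gbp3, Gbp5 and Gbp7. The gamma-activated site was found in 9 of the 39 members (23.1%) and in 8.13% of all genes. Both were present in 3 members, and no match of 1 overlapped a match of the other in a member, as happened in 17 genes of all. Members below are those that were detected on all 3 arrays and held the element, followed by Ifit1 and Ifit3, which held it and were not detected on any array. Capitals mark every whole match to the response element in the stretch shown, which reads as TTTC, any 2 bases and TTTC where it lies on the opposite strand, and overlapping or touching matches run together.
Rsad2 (chr12:26456543-26456592, minus strand): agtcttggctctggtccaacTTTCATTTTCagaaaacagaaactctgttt
Oas1g (chr5:120887614-120887651, minus strand): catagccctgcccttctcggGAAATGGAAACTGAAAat
Gbp3 (chr3:142559979-142560034, plus strand): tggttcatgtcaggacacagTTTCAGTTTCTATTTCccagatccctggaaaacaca
Gbp7 (chr3:142530263-142530312, plus strand): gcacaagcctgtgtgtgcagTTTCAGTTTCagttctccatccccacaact
Ifitm2 (chr7:140955978-140956027, minus strand): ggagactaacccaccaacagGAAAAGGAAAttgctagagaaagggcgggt
Ifi208 (chr1:173673587-173673636, plus strand): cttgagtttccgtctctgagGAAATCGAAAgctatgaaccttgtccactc
Irf2 (chr8:46739495-46739533, plus strand): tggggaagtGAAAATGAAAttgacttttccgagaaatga
Ifit1 (chr19:34640765-34640814, plus strand): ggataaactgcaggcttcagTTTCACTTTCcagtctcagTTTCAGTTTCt
Ifit3 (chr19:34583353-34583402, plus strand): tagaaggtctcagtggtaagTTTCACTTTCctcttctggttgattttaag
The first base of the first match lay 120 bases before the start in Rsad2 and 18 bases before it in Oas1g. Among members with a promoter sequence, 9 of the 28 that were detected and 6 of the 11 that were not held the element. A match is a run of letters and not a shown binding site.

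Of the 52 members, 21 were detected on all 3 arrays, 4 on 2 arrays and 5 on 1 array, and 22 on none, where detected means a detection p-value under 0.01. On the arrays labelled ECRS_KO, ECRS_WT and Control_WT, 22, 27 and 27 members were detected. The detected shares of all genes were 48.8%, 47.4% and 45.4% in the same order. The highest levels belonged to Ifitm2, Ifitm1 and Ifitm3, which hinder the fusion of enveloped viruses with cell membranes. Ifitm2 had signals of 7329.5 on the array labelled ECRS_KO, 7420.5 on that labelled ECRS_WT and 5061 on that labelled Control_WT. Its normalized level lay at percentiles 98.3, 98.7 and 98.4 of all genes on those arrays.

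**Figure D1:**
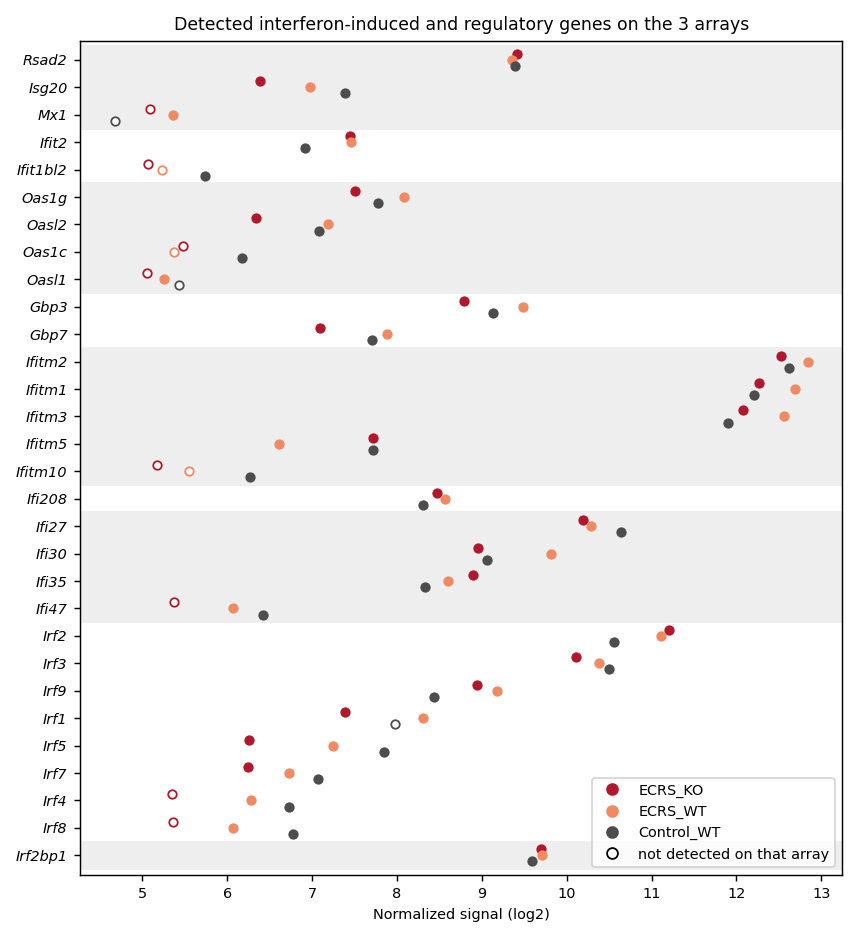
Normalized log2 signal of the 30 detected members on each array, 1 row a gene, with role groups shaded in turn. Open points mark arrays on which the gene was not detected; Ifitm2, Ifitm1 and Ifitm3 lie highest, and the points labelled ECRS_KO lie lowest for Irf5, Irf4 and Irf8.

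The undetected members were unevenly spread over the families, which lie in blocks of neighbouring genes in RefSeq order. The block of Ifitm5, Ifitm2, Ifitm1 and Ifitm3 was detected whole. Of the guanylate-binding proteins, Gbp3 and Gbp7 were detected in the block that also holds Gbp5 and Gbp2b, and 0 of 4 were detected in the block of Gbp8, Gbp9, Gbp4 and Gbp6. In the block of 9 oligoadenylate synthetases only Oas1g and Oas1c were detected. The other undetected members were Ifi202b, Ifi205, Ifi27l2a, Ifi27l2b, Ifi44l, Ifih1, Ifit1, Ifit3 and Mx2. A high signal did not always bring detection. Ifi27l2a had signals of 1630.2 on the array labelled ECRS_KO, 783 on that labelled ECRS_WT and 1481 on that labelled Control_WT, with detection p-values of 0.0844, 0.121 and 0.0681. Ifit3 had signals of 130.3, 72.5 and 2.47 on the arrays in that order, and it too was not detected. Probes of a signal above 1000 that were not detected numbered 222, 178 and 153 on the arrays in that order.

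The comparison of the arrays labelled ECRS_WT and Control_WT bears, if the labels hold, on the disease in wild-type mice. Differences of the members were mostly small: of 30 measured, meaning detected on either array, 0 were higher by 2-fold or more and 1, Ifitm5, was lower. Among all 8766 genes measured 3.66% were higher by that much, 1.38% were lower and 5.04% passed 2-fold either way. Differences were above 0 for 16 members and below 0 for 14, while 41.3% of all genes lay above 0 and 58.6% below. The median difference of the members was 0.11 on the log2 scale, and that of all genes was -0.09. In bulk tissue, fewer cells of a type and less RNA per cell cannot be told apart.

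Ifitm5, the bone-restricted relative of the antiviral Ifitm proteins, is known for its part in mineralisation by osteoblasts. Its signal was 280 on the array labelled ECRS_KO, 81.9 on that labelled ECRS_WT and 126 on that labelled Control_WT. The signal was lowest on the array labelled ECRS_WT. Its difference was -1.11, or 2.15-fold lower, and it kept its 2-fold call under 5 of 10 other settings of the processing. Of 10 osteoblast and osteocyte genes, listed after values had been seen, 6 had a probe and 5 were measured. Of the 5, 2 were at least 2-fold lower, Phex and Sp7, and the list median was -0.84. Over the alternatives this median ran between -0.95 and -0.49, with 0 to 2 genes lower by 2-fold. The normalized levels of the 6 genes summed to 2677 on the array labelled ECRS_KO, 1800.4 on that labelled ECRS_WT and 3123 on that labelled Control_WT. The part of these genes in the result was not tested.

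Among the antiviral effectors, Rsad2, which encodes viperin, an enzyme that makes a chain-terminating nucleotide, had signals of 916 on the array labelled ECRS_KO, 646 on that labelled ECRS_WT and 462 on that labelled Control_WT. After normalization its levels were 9.41, 9.36 and 9.39, so the arrays were nearly level, and its differences were -0.03 for ECRS_WT over Control_WT, 0.05 for ECRS_KO over ECRS_WT and 0.02 for ECRS_KO over Control_WT. Both differences against Control_WT turned sign with scaling. Ifit2, which binds RNA, had signals of 233, 162 and 62.4 on the arrays labelled ECRS_KO, ECRS_WT and Control_WT, and its difference between the arrays labelled ECRS_WT and Control_WT was 0.53. Isg20, an exonuclease that degrades RNA, had a difference of -0.40 there. Ifitm3 had the largest difference of the Ifitm block upward, 0.65, with signals of 5444 on the array labelled ECRS_KO, 6070 on that labelled ECRS_WT and 3003 on that labelled Control_WT. Ifitm1 and Ifitm2 had differences of 0.48 and 0.22; that of Ifitm2 turned sign when arrays were scaled on the probes detected on all of them. None of these passed 2-fold. Mx1 had a bound of 0.19.

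Oas1g and Oasl2, members of the family of oligoadenylate synthetases, had differences of 0.31 and 0.11, of which that of Oasl2 turned sign with the authors' values. The second probe of each was not detected on any array. Oas1c, Ifit1bl2 and Ifitm10 were detected only on the array labelled Control_WT and had bounds of -0.80, -0.50 and -0.72. Oasl1, detected only on the array labelled ECRS_WT, had a difference of -0.17, its level being higher on the array labelled Control_WT, which did not detect it. Gbp3 and Gbp7, GTPases induced strongly by interferon gamma, had differences of 0.35 and 0.18. Ifi30, a lysosomal thiol reductase that prepares antigens for presentation, had the highest difference of the 30 measured members, 0.76. Its signals were 676 on the array labelled ECRS_KO, 887 on that labelled ECRS_WT and 358 on that labelled Control_WT. Its signal was highest on the array labelled ECRS_WT. Ifi27, Ifi35 and Ifi47 differed by -0.35, 0.27 and -0.36, and Ifi208, of the family of proteins that bind DNA through HIN domains, by 0.26.

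The 8 interferon regulatory factors spread in both directions. Irf9, a DNA-binding part of the complex that binds the response element, had signals of 667 on the array labelled ECRS_KO, 569 on that labelled ECRS_WT and 224 on that labelled Control_WT, and a difference of 0.74. Irf2, which competes with Irf1 for its sites, had a difference of 0.56. Irf3, which is present before infection and switches on interferon beta, had -0.11, and this turned sign under median scaling. Irf5 and Irf8, factors of macrophages and dendritic cells, had -0.60 and -0.71, and Irf4, which lymphocytes and dendritic cells use, had -0.45. Irf1 and Irf7, the activators that answer interferon gamma and drive interferon alpha, had 0.33 as a bound and -0.34, and were named after their values were seen. Irf2bp1, a corepressor that works with Irf2, had 0.11. The members that hold the response element had a median of 0.22 over 9 measured, and those that do not, -0.11 over 19. Macrophage and dendritic cell markers had a median difference of 0.83 over 6 measured of 8 with a probe, and those of T cells 0.09 over 4 of 7. Neutrophil markers had a median of -0.76 over 7, of which 3 were at least 2-fold lower. The part of these cell types in the result was not tested.

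**Figure D2:**
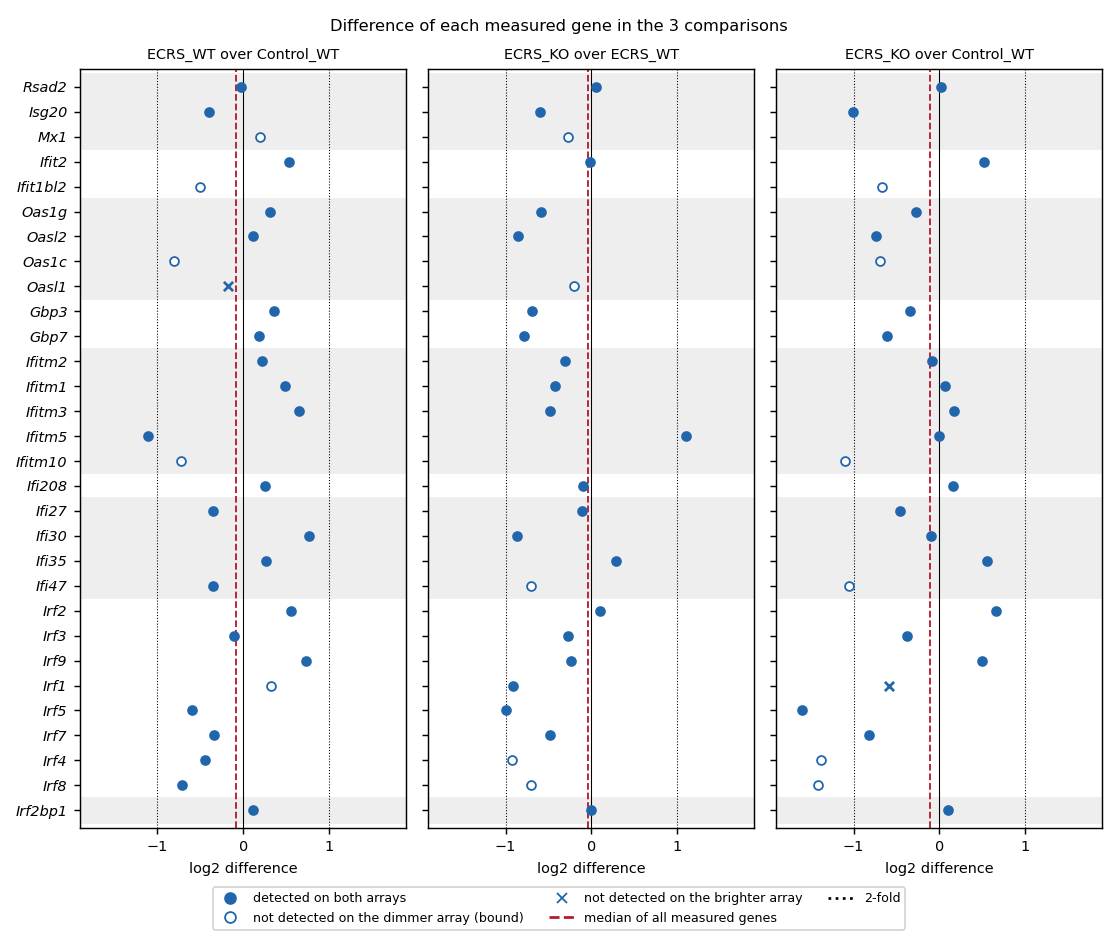
Log2 difference of each measured member in the 3 comparisons, with the median of all measured genes as a dashed line and 2-fold as dotted lines. In the comparison of ECRS_KO with ECRS_WT 23 of 27 points lie below 0 and Ifitm5 lies beyond 2-fold above it.

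By their labels, the arrays ECRS_KO and ECRS_WT set mice with the knockout against wild-type mice of the same disease. Most members were lower on the array labelled ECRS_KO, by less than 2-fold. Of 27 measured, 23 had a difference below 0 (85.2%), against 54.4% of all 8919 genes measured. By 2-fold or more, 1 member was higher, Ifitm5, and 0 were lower, against 4.7% and 2.32% of all genes, or 7.02% either way. Above 0 were 4 members and 45.4% of all genes. The median difference was -0.42, and that of all genes -0.04. Where limma inferred the background itself, the median of the members was -0.07 and that of all genes -0.0078. Of the 27, 5 were bounds, not detected on the array labelled ECRS_KO, and these could not lie above 0. Over genes detected on all 3 arrays, 17 of 21 members (81.0%) lay below 0, against 56.3% of genes. Before normalization, 11 of the 30 detected members had a higher signal on the array labelled ECRS_KO than on that labelled ECRS_WT, as had 82.7% of the 9266 genes detected on any array. The signal was higher for 24 of 30 members and 83.9% of genes for ECRS_WT over Control_WT, and for 24 of 30 members and 91.1% of genes for ECRS_KO over Control_WT. The array labelled ECRS_WT is shared with the comparison above, so a high value there enters both with opposite signs.

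Ifitm5 was 2.15-fold higher on the array labelled ECRS_KO, a difference of 1.10 that kept its call under 6 of 10 other settings. Of the osteoblast and osteocyte genes, all 5 measured had differences above 0, with a median of 0.58, and Phex, an endopeptidase of bone-forming cells, reached 1.14. Over the alternatives this median ran between 0.19 and 0.77, with 0 to 1 genes higher by 2-fold. The levels of Ifitm5 were 7.71 on the array labelled ECRS_KO and 7.72 on that labelled Control_WT, so these arrays were level under the scaling used.

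The regulatory factors had a median difference of -0.59. Irf5 had signals of 89.3 on the array labelled ECRS_KO, 137 on that labelled ECRS_WT and 141 on that labelled Control_WT. Its difference of -0.998 was just short of 2-fold and was the largest downward of the 27 members. Irf4 had signals of 31.4, 60.7 and 52.9 on the arrays labelled ECRS_KO, ECRS_WT and Control_WT. On the array labelled ECRS_KO it was not detected, and its difference of -0.93 is a bound; over 9 alternatives it ran between -1.05 and -0.059 and passed 2-fold under 1. Irf8, with signals of 31.5, 49.6 and 54.9 on the arrays in that order, was not detected there either and was at least 1.63-fold lower. Irf1 and Irf7 differed by -0.92 and -0.48. Irf3 and Irf9 differed by -0.27 and -0.23, and Irf2 by 0.10. In all, 7 of the 8 factors lay below 0.

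Both measured guanylate-binding proteins lay below 0. Gbp3 had signals of 598 on the array labelled ECRS_KO, 705 on that labelled ECRS_WT and 379 on that labelled Control_WT, and a difference of -0.69. Gbp7 had signals of 180.3, 223 and 125 on the arrays labelled ECRS_KO, ECRS_WT and Control_WT, and a difference of -0.79. Of the oligoadenylate synthetases, Oasl2 differed by -0.85 and Oas1g by -0.59. Ifi30 differed by -0.86, while Ifi35 differed by 0.29 and was among the 4 members above 0. Ifitm3, Ifitm1 and Ifitm2 differed by -0.48, -0.42 and -0.31. Isg20 differed by -0.60. Mx1, a dynamin-like GTPase, was detected only on the array labelled ECRS_WT, where its signal was 22.9, against 19.2 on the array labelled ECRS_KO and -3.75 on that labelled Control_WT. Differences near 0 were those of Ifi208 and Ifi27, both -0.10, and of Ifit2 and Irf2bp1, both -0.01, and these turned sign under median scaling. In this comparison the members that hold the response element had a median of -0.31 over 7 measured, and those that do not, -0.48 over 18.

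Markers of T cells, macrophages and B cells also lay lower in the comparison of ECRS_KO with ECRS_WT. T cell markers had a median difference of -2.03 over 4 measured of 7 with a probe, and Cd3d, Cd3e and Cd3g were each at least 2-fold lower. Over the alternatives this median ran between -2.11 and -0.68 with 0 to 4 markers lower. Their normalized levels summed to 480.2 on the array labelled ECRS_KO, 1697 on that labelled ECRS_WT and 1495 on that labelled Control_WT, and Cd247, Cd5 and Cd4 were not detected. Macrophage and dendritic cell markers had a median of -1.42 over 6 measured of 8, with 5 at least 2-fold lower. Their levels summed to 2667 on the array labelled ECRS_KO, 7493 on that labelled ECRS_WT and 4746 on that labelled Control_WT, and Itgax and Flt3 were not detected. B and plasma cell markers had a median of -0.96 over only 2 measured of 5, with 1, Mzb1, at least 2-fold lower. They summed to 481 on the array labelled ECRS_KO, 973 on that labelled ECRS_WT and 1475 on that labelled Control_WT. Cd79a, Ms4a1 and Jchain were not detected on the arrays labelled ECRS_KO and ECRS_WT. Markers of olfactory sensory neurons lay higher, with 8 of 9 at least 2-fold higher and sums of 64999 on the array labelled ECRS_KO, 28618 on that labelled ECRS_WT and 30625 on that labelled Control_WT. Airway epithelium markers had a median of -0.66 over 5 measured. Plasmacytoid dendritic cell markers had a median of only -0.18 over 3 measured of 5, with 1 above 0. Of the 6 NK cell markers only Klrb1c was measured, with a difference of -0.28. Neutrophil markers had a median of 0.16 over 7, with 5 above 0, which turned sign when arrays were scaled on the probes detected on all of them. The part of these cell types in the differences of the members was not tested.

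The pathway around the members was described from lists by role. Of the 17 interferon genes with a probe only Ifne, the interferon of epithelia, was detected, on the arrays labelled ECRS_WT and Control_WT. Its signals were 44.0 on the array labelled ECRS_WT, 30.6 on that labelled Control_WT and 37.9, below detection, on that labelled ECRS_KO. Of the receptors and signal transducers, 6 of 11 were measured and 0 passed 2-fold in either comparison, with medians of -0.20 for ECRS_KO over ECRS_WT and -0.05 for ECRS_WT over Control_WT. The highest levels among them were those of Stat3, a signal transducer of many cytokines, and Ifngr1, the ligand-binding chain of the interferon gamma receptor, which differed by -0.37 and -0.49 for ECRS_KO over ECRS_WT. Of the nucleic acid sensors and adaptors, Unc93b1, which carries Toll-like receptors to endosomes, was 2.74-fold higher for ECRS_WT over Control_WT. Tlr7, a sensor of single-stranded RNA, was at least 2.24-fold lower for ECRS_KO over ECRS_WT. Of the inhibitors, Pias4 was 2.07-fold higher for ECRS_WT over Control_WT, and Nlrc5, which is also the transactivator of class I genes, was 2.15-fold lower for ECRS_KO over ECRS_WT.

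Among 19 other interferon-induced genes measured, Cxcl9, a chemokine induced by interferon gamma that draws T cells, had signals of 83.5 on the array labelled ECRS_KO, 294 on that labelled ECRS_WT and 168 on that labelled Control_WT. It was 4.19-fold lower for ECRS_KO over ECRS_WT. Parp14 was 3.35-fold lower in the same comparison, where 16 of the 19 lay within 2-fold and the list median was -0.24. Cxcl10 and Cxcl11, of the same list, were not detected on any array. Ube2l6, an enzyme that attaches Isg15, was 2.39-fold higher for ECRS_WT over Control_WT. Cmpk2, the neighbour of Rsad2 in the genome, was 2.02-fold higher for ECRS_KO over ECRS_WT, with signals of 316 on the array labelled ECRS_KO, 103 on that labelled ECRS_WT and 71.6 on that labelled Control_WT. Of the list of immunity-related GTPases, which leaves out the member Ifi47, Igtp and Irgm2 were measured and were lower in that comparison, by 2.28-fold and 2.02-fold. Of the genes of class I presentation, the immunoproteasome subunits Psmb8, Psmb9 and Psmb10 were 2.33-fold, 2.29-fold and 2.10-fold lower there, and the median of the 8 measured was -0.76. Tapbp, which helps to load peptides on class I molecules, was 2.92-fold higher for ECRS_WT over Control_WT, where the medians of these 3 lists were -0.06, 0.02 and 0.02.

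**Figure D3:**
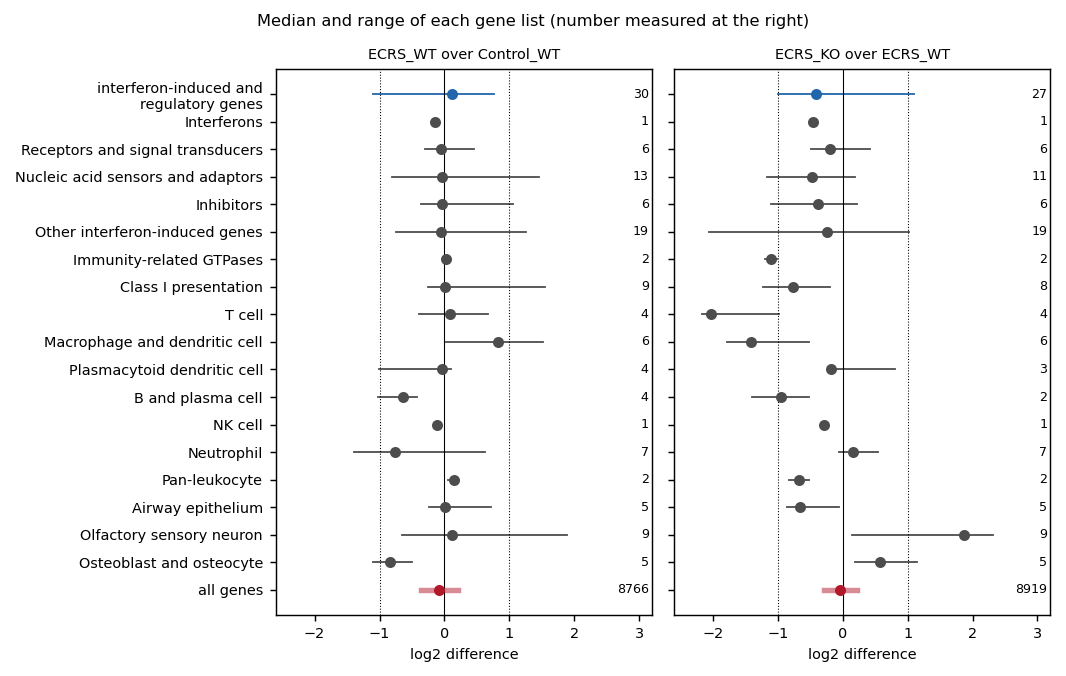
Median (point) and range (line) of the log2 difference in each gene list for 2 comparisons, with the number measured at the right; for all genes the bar spans the quartiles. For ECRS_KO over ECRS_WT the T cell list lies lowest at -2.03 and the olfactory sensory neuron list highest at 1.86, with the members at -0.42.

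By their labels, the arrays ECRS_KO and Control_WT differ in both disease and genotype, and their comparison shares an array with each of the others. Of 28 members measured, 19 had a difference below 0 (67.9%), against 57.2% of all 9085 genes measured. By 2-fold or more, 0 members were higher and 6 were lower, against 6.87% and 5.43% of all genes, or 12.3% either way. Above 0 were 9 members and 42.7% of all genes. The median difference was -0.36, and that of all genes -0.11. Of the 28, 6 were bounds, not detected on the array labelled ECRS_KO, and these could not lie above 0. Over genes detected on all 3 arrays, 12 of 21 members (57.1%) lay below 0, against 59.4% of genes. The median over these was -0.09 for the members and -0.13 for all genes, so the lower position of the members was not seen there. T cell markers had a median of -1.54 in this comparison, with 4 of 4 measured at least 2-fold lower, B and plasma cell markers -1.19 over 4, macrophage and dendritic cell markers -0.83 over 5, neutrophil markers -0.60 over 7 and olfactory sensory neuron markers 2.12, with 7 of 9 higher by 2-fold or more. The part of these cell types in the differences of the members was not tested.

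Of the 6 lower members, 3 were regulatory factors. Irf4, Irf8, Ifitm10 and Ifi47 were not detected on the array labelled ECRS_KO, so their bounds could not lie above 0. Over probes detected on all 3 arrays, 2 members were lower by 2-fold or more, Irf5 and Isg20. Irf5 was 3.02-fold lower, a call kept under 9 of 10 other settings. Irf8 was at least 2.67-fold lower and Irf4 at least 2.59-fold lower, each kept under 5 of 9. Ifitm10, a little studied member of the Ifitm family, had signals of 22.9 on the array labelled ECRS_KO, 29.0 on that labelled ECRS_WT and 35.7 on that labelled Control_WT, and was at least 2.14-fold lower, a call kept under 4 of 9. Ifi47, an immunity-related GTPase, had signals of 32.0, 49.6 and 40.5 on the arrays in that order and was at least 2.08-fold lower, also kept under 4 of 9. Oas1c and Ifit1bl2 had bounds of -0.70 and -0.67. Isg20 had signals of 101.2, 112 and 94.5 on the arrays in that order; its signal was higher on the array labelled ECRS_KO than on that labelled Control_WT, while its normalized level was 2.01-fold lower, a call kept under 4 of 10. At the other end, Irf2 differed by 0.66, Ifi35 by 0.56, Ifit2 by 0.52 and Irf9 by 0.50. The members that hold the response element had a median of -0.28 over 9 measured, and those that do not, -0.48 over 18.

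**Figure D4:**
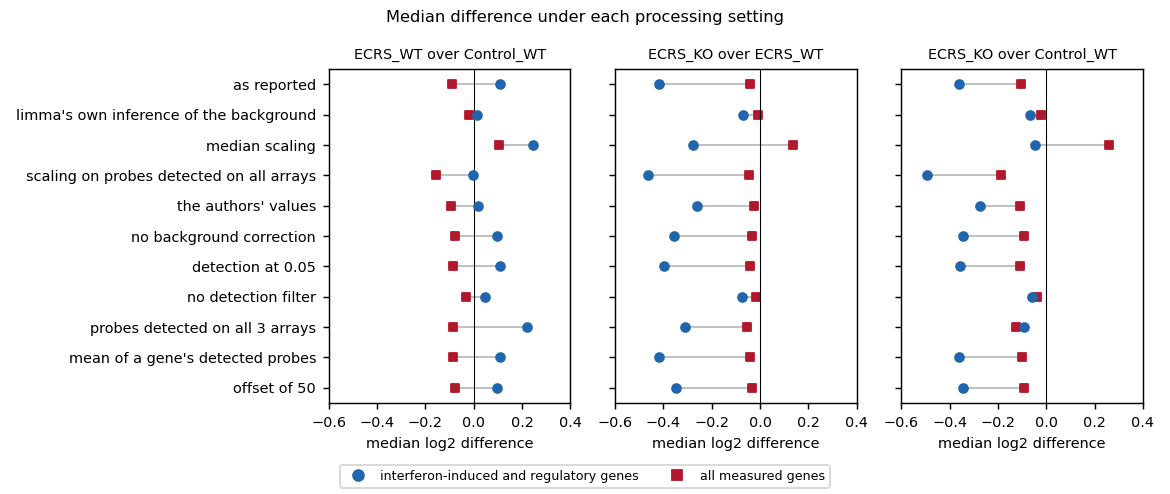
Median log2 difference of the members (circles) and of all measured genes (squares) under the processing reported and 10 alternatives, in 3 comparisons. For ECRS_KO over ECRS_WT the circle lies left of the square under every setting shown, between -0.46 and -0.07.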

How the data were processed

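Signal intensity and a detection p-value for 35226 probes are given by the deposited non-normalized table, per the file headers; the authors also deposited normalized intensity. BeadStudio is named in the submitters' processing notes; its version and the annotation release were not given in the sources used here. The authors' values for Control_WT were the signal plus 70.6. Replicates do not exist: each group is 1 array of pooled RNA, so no test was made.

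Values were computed with limma 3.58.1 in R 4.3.3 and with Python 3.11.15: normexp background correction (offset 16), quantile normalization and log2. The negative control mean and SD came from the median signal in 100 bins of detection p-value, since limma's own inference gave SDs of 360.6, 356.0 and 259.6 for ECRS_KO, ECRS_WT and Control_WT, against 16.9, 13.7 and 9.23 here. A gene took its probe of highest mean signal. It was called at 2-fold if detected (p under 0.01) on the brighter array; if the dimmer array did not detect it, the dimmer level was set to the higher of its own and the lowest detected one, and the fold is a lower bound. Of the probes, 20571 had 1 symbol, 10 several and 14645 none. Members named were Rsad2, every 2-fold member and the 3 detected members of highest level in each role; other lists named their largest 2-fold members. The members and lists were chosen with earlier results of these data known. The method was tried on simulated data, and 10 alternatives were tried. Only bright probes detected on all 3 arrays were changed in the simulation, and its detection p-values followed the signal. The simulation therefore does not bear on bounds of dim genes or on bright probes that were not detected.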

Additional observations from a re-analysis of the deposited data

How the results depend on the processing

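For ECRS_KO over ECRS_WT the median of the members, -0.42, was -0.069 with limma's own inference, -0.28 under median scaling, -0.26 with the authors' values, -0.076 without a detection filter and -0.31 over probes detected on all 3 arrays. That of all genes, -0.04, was also nearer 0 with limma's own inference, at -0.0078, and without a filter, at -0.018. The 1 member higher there became 0 with limma's own inference, the authors' values, no background correction or an offset of 50, and 1 member was lower under scaling on probes detected on all arrays, against 0. For ECRS_WT over Control_WT the median, 0.11, was 0.24 under median scaling, 0.22 over probes detected on all 3 arrays and -0.0022 under scaling on probes detected on all arrays. The 1 member lower became 0 with limma's own inference, median scaling, the authors' values, no background correction or an offset of 50, and 2 without a filter, where 1 was higher against 0. For ECRS_KO over Control_WT the median, -0.36, was -0.069 with limma's own inference, -0.045 under median scaling, -0.49 under scaling on detected probes, -0.059 without a filter and -0.090 over probes detected on all 3 arrays. The median of all genes was -0.037 without a filter and -0.13 over probes detected on all 3 arrays. Under the latter setting the members lay above all genes, the reverse of the order reported. The 6 members lower there became 0 with limma's own inference, 3 under median scaling, 1 with the authors' values, no background correction or an offset of 50, and 2 over probes detected on all 3 arrays; 2, Ifi35 and Ifit2, were higher under median scaling and 1 without a filter, against 0. Median scaling moved the median of all genes to 0.10, 0.14 and 0.26 in the comparisons ECRS_WT over Control_WT, ECRS_KO over ECRS_WT and ECRS_KO over Control_WT. The share of 2-fold calls that were higher became 92.3%, 81.7% and 90.8%, against 72.6%, 66.9% and 55.9%. It was 82.6% without background correction and 81.9% with an offset of 50 for ECRS_WT over Control_WT, and 44.2% under scaling on detected probes for ECRS_KO over Control_WT. For ECRS_KO over ECRS_WT the medians of other lists ran, over the 10 alternatives, between -1.53 and -1.20 for macrophage and dendritic cell markers, -0.96 and -0.32 for B and plasma cell markers, 1.28 and 1.86 for olfactory sensory neuron markers, -0.75 and -0.084 for airway epithelium, -0.85 and -0.58 for class I presentation and -1.10 and -0.60 for immunity-related GTPases, of which 0 to 2 were lower by 2-fold. Genes lower by 2-fold numbered 0 to 1 among sensors, 0 to 1 among inhibitors, 0 to 2 among other interferon-induced genes and 1 to 3 in class I presentation. The causes were not tested. No paired analysis was possible because each group has 1 array.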
